A study of Mus musculus with 8 samples.

Results

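The FK506-binding proteins described here are 10 mouse genes, Fkbp9, Fkbp10, Fkbp7, Fkbp14, Fkbp2, Fkbp11, Fkbp1a, Fkbp4, Fkbp5 and Fkbp8, out of 18138 gene symbols on the array. They were taken by symbol and were read by 11 of the 25697 probes. The family was chosen by a readout of these same arrays, since Fkbp9 had the largest increase of the 8727 genes tested, so the differences of its members between treatments are given as a description, with no p-value, and the count of members past the cutoffs is set beside that of all genes without supporting anything. The members' probes had a detection p-value under 0.01 on all 8 arrays, so that the detection filter removed none of the 10 genes.

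The cells were mouse aortic smooth muscle cells (AoSMC), primary cells grown out from explants of several aortas and transfected with a lipid reagent. Either a scrambled control or a moR-21 mimetic was given at a final concentration of 5 nM, and RNA was collected at 48 h. Before use the cells of both groups were kept in low-glucose medium with charcoal-treated serum, a treatment that removes steroid hormones. Each treatment had 3 samples on 8 arrays in all, since control 1 and moR-21 3 had repeat arrays, A and B. Both groups were transfected, so the comparison has no untransfected cells. The sources do not state whether the 3 samples of a treatment came from separate animals or separate cultures, so the errors and p-values measure the spread between these samples, which may be technical. The labels used here give no strain, sex or age of the mice. MoR-21 is a microRNA-offset RNA, a short RNA cut from the miR-21 precursor just beside the mature miR-21.

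FK506-binding proteins are peptidyl-prolyl isomerases, enzymes that turn the bond before a proline in a protein chain and so help proteins fold. The members with a signal peptide work in the endoplasmic reticulum, where procollagen and other secreted proteins are folded, and in vascular smooth muscle those proteins build the matrix of the vessel wall. The cytosolic members bind the drugs FK506 and rapamycin, calcium channels, or the chaperone Hsp90 with the steroid receptors that it holds.

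The following RNA sequences show the stretch of the precursor that moR-21 comes from and the mature miR-21 beside it, which was not given in these samples. They were read from RefSeq's table for the mouse assembly GRCm38.p6 and are written 5′ to 3′. In the first, the 17 bases of the Mir21a hairpin that precede mature miR-21 (chr11:86584142-86584158, minus strand), the capitals mark the bases common to the first 3 of the seed windows that the study considered for moR-21. The exact ends of the mimetic were not read from a file here. In the second, mature miR-21a-5p (chr11:86584120-86584141, minus strand), the capitals mark the seed, bases 2 to 8.
Mir21a hairpin before miR-21a-5p: uGUACCaccuugucgga
miR-21a-5p: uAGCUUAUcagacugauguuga

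Across the arrays the median intensity lay between 102 and 109, and 10285 to 10512 probes per array were detected. The repeat arrays of a sample differed by an SD of 0.0914 (control 1) and 0.103 (moR-21 3) on the log2 scale over the probes tested. Of 8 smooth muscle markers 5 were detected. Acta2, smooth muscle actin, was higher after moR-21 by 0.40 on the log2 scale at its brightest probe (limma, Benjamini-Hochberg adjusted p = 2.14e-05). Its dimmer probes gave larger differences of 0.73, 0.64 and 0.81. Tagln was close to background and detected only on the 4 moR-21 arrays. It passed the detection filter only through the group in which it was higher, so its difference of 0.20 is given as a description. Cnn1, Myh11 and Myocd were not detected on any array. Of 7 endothelial markers only Vwf was detected, although the free-text description of the samples shortens the cell name to AoECs. The other smooth muscle markers detected, Smtn and Lmod1, differed by -0.05 and 0.05, and Cald1 by -0.00093. The summed normalized signal of the smooth muscle markers, most of it from Acta2, was 9948 to 10291 in the control samples and 12719 to 13557 in the moR-21 samples, and without Acta2 it was 744 to 804 and 762 to 819. The sums of other markers, in control and then in moR-21 samples, were as follows: fibroblast (4 of 6 detected, Dpt and Dpp4 not) 13805 to 14377 and 11185 to 12440, mesothelial (2 of 5, Msln and Lrrn4 not) 771 to 780 and 402 to 416, and macrophage (2 of 6, Ptprc, Cd68, Emr1 and Itgam not) 1460 to 1529 and 1244 to 1271. The endothelial range was 117 to 120 in control and 118 to 127 in moR-21 samples. Most of the mesothelial sum came from Upk3b, at -1.24, while Krt19 stood at -0.13 with overlapping samples. Most of the macrophage sum came from Cd14, at -0.27, while Csf1r was close to background at -0.013. The mesothelial and macrophage sums therefore follow mainly 1 gene each. Most of the fibroblast sum came from Dcn, at -0.22 at its brightest probe. Of the other fibroblast markers, Lum stood at -0.56 (limma adjusted p = 2.21e-06) and Pdgfra at -0.17. Pi16, close to background and detected only on the control arrays, stood at -0.29. In RNA from whole cultures, fewer cells of a type and less RNA per cell cannot be told apart, and the part of these shifts in the differences given here was not tested.

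Fkbp9, an isomerase of the endoplasmic reticulum with several FK506-binding domains, stood 2.70-fold higher after moR-21. Its log2 signal, quantile normalized over the 8 arrays, was 10.01, 9.99 and 10.13 in control samples 1 to 3. After moR-21 it was 11.52, 11.43 and 11.47. The samples of each treatment lay close together and the treatments did not overlap. The group means were 10.04 ± 0.076 and 11.47 ± 0.046 (SD, n = 3 each), and the difference of 1.43 had a standard error of 0.051. The deposited intensities, before any normalization, show the same gap. They were 1116 and 1112 on the arrays A and B of control 1, 933 on control 2 and 1102 on control 3. They were 2985 on moR-21 1, 2665 on moR-21 2, and 3104 and 2557 on the arrays A and B of moR-21 3, so that the dimmest moR-21 array was above the brightest control array. On the normalized scale, array A read above array B by 0.16 in control 1 and by 0.19 in moR-21 3, far less than the difference between treatments. Fkbp9 has 1 probe on the array, so no other probe checks it.

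**Figure D1:**
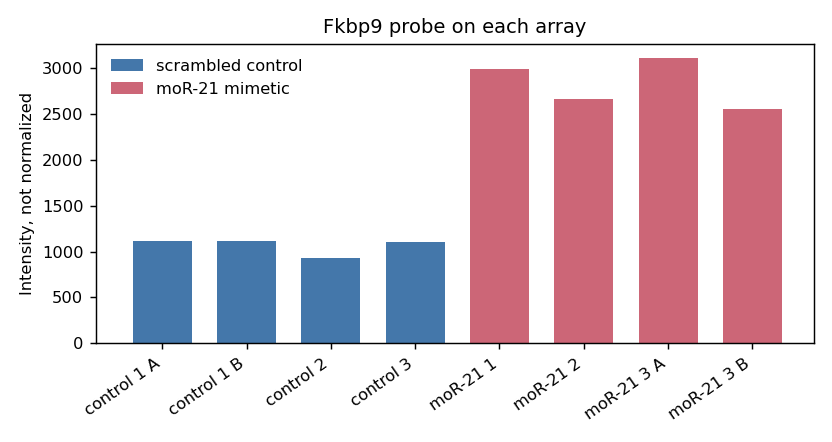
Deposited intensity of the Fkbp9 probe, not normalized, on each of the 8 arrays, with the 4 arrays of scrambled control samples and the 4 arrays of moR-21 samples in separate colours and A and B for repeat arrays of a sample. Control arrays lie between 933 and 1116 and moR-21 arrays between 2557 and 3104.

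A gene was called where its brightest detected probe passed a fold change of 1.3 (0.38 on the log2 scale) with a limma adjusted p under 0.002. Of the 8727 genes tested 7.79% were called, 3.41% higher and 4.38% lower. Of the 10 FK506-binding proteins 1 was called higher, Fkbp9, and 0 lower, a count that the choice of the family had already fixed in part and from which nothing is read. The median of their differences was -0.02, and the median size of the differences was 0.22 on the log2 scale against 0.097 over all genes. The members were detected on all 8 arrays, as were only 7215 of the 8727 genes, and the family was chosen on these arrays. Nothing is read from that gap either. The 10 genes divided evenly around 0, with 5 above and 5 below. The treatments did not overlap in 7 of them, 3 higher and 4 lower, where 46.3% of all genes tested did not overlap.

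**Figure D2:**
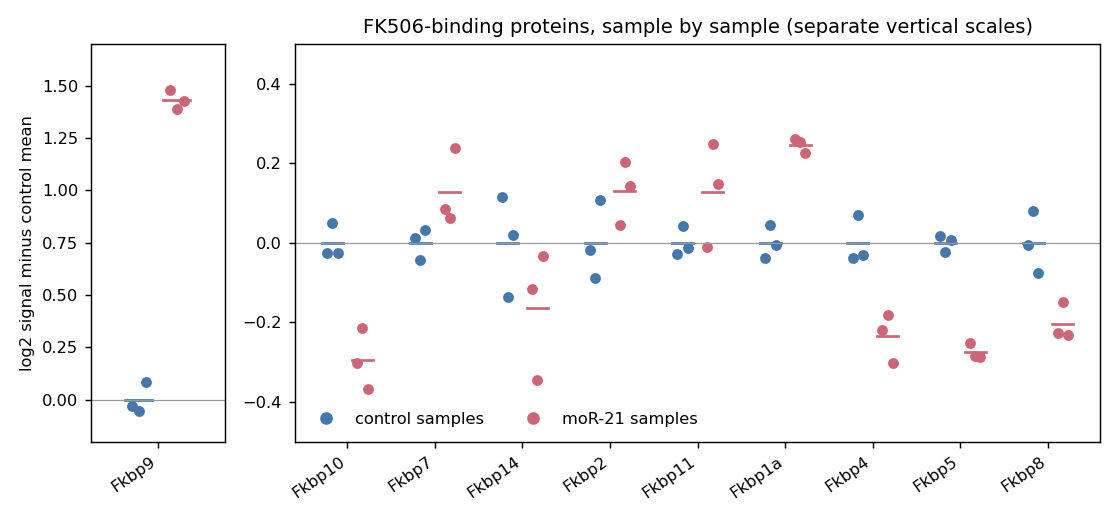
Log2 signal of each FK506-binding protein in the 6 samples minus its mean in the control samples, with points for samples and bars for the mean of each treatment. Fkbp9 is drawn on a vertical scale of its own: its moR-21 mean lies 1.43 above control, while the means of the other 9 genes lie between -0.30 and 0.25.

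Of the 6 members that work in the endoplasmic reticulum, 4 lay above control and 2 below, so the difference of Fkbp9 was not shared by the compartment. Fkbp10, also called FKBP65, is a procollagen chaperone whose loss causes brittle bones and joint contractures. Its log2 signal was 9.11, 9.18 and 9.11 in the control samples and 8.83, 8.92 and 8.76 in the moR-21 samples. The 3 moR-21 samples were all below the controls, with a difference of -0.30 (standard error 0.051), or 1.23-fold lower, under the fold cutoff. Fkbp14, FKBP22, binds and folds collagen type III and others, and its loss causes a form of Ehlers-Danlos syndrome. It read 8.31, 8.06 and 8.22 in control and 8.08, 7.85 and 8.16 after moR-21, a difference of -0.17 (standard error 0.077), and the samples of the treatments overlapped. Its difference was -0.075 without moR-21 2 and -0.107 without control 1. Both collagen-binding members therefore had lower means after moR-21, and only in Fkbp10 did the samples separate.

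Fkbp7, FKBP23, works beside the chaperone BiP in the endoplasmic reticulum. Its values were 7.23, 7.17 and 7.25 in control and 7.30, 7.28 and 7.45 after moR-21. The difference was 0.13 (standard error 0.054). The samples did not overlap, but the highest one, moR-21 3, was a mean of arrays that differed by 0.33, more than the treatments did. Its difference was 0.073 without moR-21 3 and 0.24 with normexp, a background correction that removes an estimate of unspecific signal. Fkbp2, FKBP13, is a small member held in the endoplasmic reticulum, and the only one of the 10 with 2 probes. At its brighter probe the values were 9.25, 9.18 and 9.38 in control and 9.31, 9.47 and 9.41 after moR-21, a difference of 0.13 (standard error 0.059) with overlap, which was 0.085 without control 2. At its dimmer probe the difference was -0.11 (standard error 0.051), so the probes disagree in sign, and their mean gave 0.011. Fkbp11, FKBP19, is a membrane-anchored member abundant in secretory cells. It read 9.16, 9.23 and 9.18 in control and 9.18, 9.44 and 9.34 after moR-21, a difference of 0.13 (standard error 0.060) with overlapping samples. It was 0.069 without moR-21 2 and 0.198 without moR-21 1.

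Fkbp1a, FKBP12, the small cytosolic protein through which FK506 and rapamycin act and which binds ryanodine receptors and TGF-beta type I receptors, was slightly higher. Its values were 10.40, 10.48 and 10.43 in control and 10.70, 10.69 and 10.66 after moR-21. The difference of 0.25 (standard error 0.045) was 1.19-fold, with each moR-21 sample above each control. After Fkbp9 it had the largest positive difference in the family.

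The 3 members with tetratricopeptide repeats, which bind Hsp90, all lay below control with no overlap of samples. Over the 8727 genes, 1912 had all moR-21 samples below the controls, and nothing is read from the 3 members. Fkbp5, FKBP51, lowers the affinity of the glucocorticoid receptor for its hormone and is itself induced by that receptor. Its values were 7.59, 7.55 and 7.58 in control and 7.32, 7.29 and 7.28 after moR-21. Its difference was -0.27 (standard error 0.044). With normexp it became -0.48, or 1.39-fold lower, which is past the fold cutoff. Its probe is dim, and background left in the signal shrinks the fold change of dim probes. Fkbp4, FKBP52, the counterpart that promotes steroid receptor activity, read 9.88, 9.99 and 9.89 in control and 9.70, 9.74 and 9.62 after moR-21. Its difference was -0.23 (standard error 0.051). Fkbp8, FKBP38, a protein of the outer mitochondrial membrane that binds Bcl-2, read 9.87, 9.96 and 9.80 in control and 9.65, 9.73 and 9.64 after moR-21. Its difference was -0.20 (standard error 0.052). Without background correction the 3 differences came to between 1.15-fold and 1.21-fold lower, all under the cutoff.

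**Figure D3:**
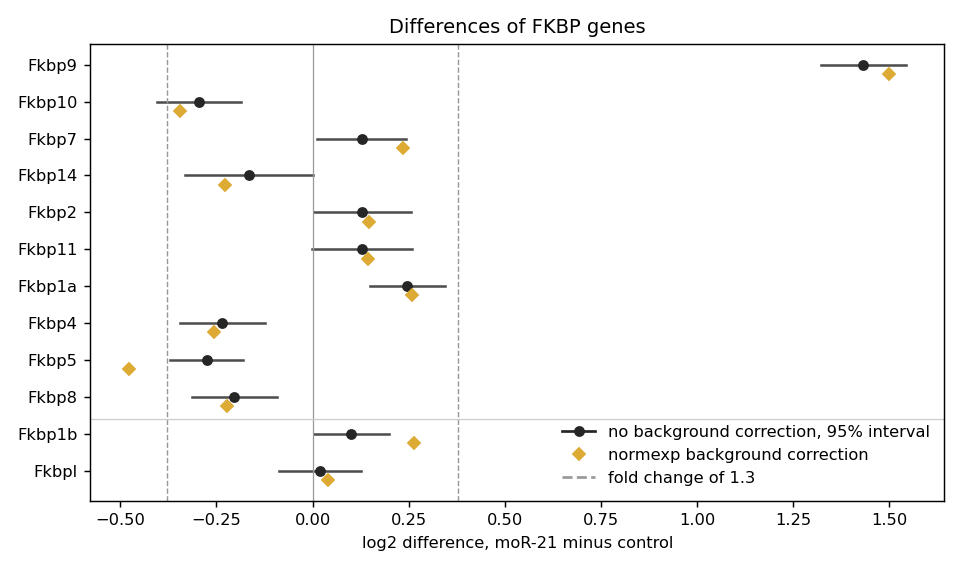
Log2 difference between moR-21 and control for the 10 FK506-binding proteins and for Fkbp1b and Fkbpl, without background correction (circles with 95% intervals of the limma fit) and with normexp (diamonds), and dashed lines at a fold change of 1.3. Fkbp9 lies at 1.43 and 1.498, and Fkbp5 crosses the lower line with normexp only, at -0.48.

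Among the other genes with an FKBP domain, 5 of the 6 described here were on the array and 2 were tested. Of these 0 were called by limma, and 1 of the 2, Fkbp1b, had an unadjusted p under 0.05. Over all 8727 genes, 3889 had an unadjusted limma p under 0.05. Fkbp1b, FKBP12.6, the partner of the cardiac ryanodine receptor, was close to background, being detected on 3 of 4 control arrays and all 4 moR-21 arrays, with a difference of 0.10 (limma adjusted p = 0.105). Fkbpl, an Hsp90-binding relative, differed by 0.02 (limma adjusted p = 0.820). Fkbp3, Fkbp6 and Aipl1 were not detected on any array, and Fkbp15 had no probe under that symbol. The cyclophilins and parvulins are prolyl isomerases of other families. Of 7 tested, 5 lay above control and 2 below, with a median of 0.09, and 0 were called by limma, with 2 at an unadjusted p under 0.05. The widest of them was Ppif, the mitochondrial cyclophilin of the permeability transition pore, at -0.22 with no overlap of samples (limma adjusted p = 0.0059).

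The enzymes and chaperones that modify, fold or process procollagen had the most calls of the related groups, and also the most genes tested. The list held 26 symbols, with older and newer names of some genes counted apart, of which 19 were on the array. Of these 15 were tested, 5 above and 10 below control, with a median of -0.16 against 0.01 over all genes. By limma 4 were called, where 7.79% of all genes were. An unadjusted p under 0.05 was found for 13 of the 15, and for 3889 of the 8727 genes. In 10 of the 15 the moR-21 samples were all below the controls and in 2 all above, where over the 8727 genes 1912 were all below and 2127 all above. Plod2, the lysyl hydroxylase that acts on the ends of collagen chains and with which Fkbp10 is known to interact, fell by 0.64 on the log2 scale, from between 9.65 and 9.67 in control to between 8.95 and 9.11 (limma adjusted p = 3.70e-07). Serpinh1, the collagen chaperone Hsp47, fell by 0.41, from between 8.40 and 8.50 to between 7.97 and 8.13 (limma adjusted p = 4.98e-05). Bmp1, the protease that removes the procollagen C-terminal end, fell by 0.49 at its brightest probe (limma adjusted p = 8.42e-05). Its dimmer probes gave -0.42, which was called, and -0.32 and -0.03, which were not. Plod1, the lysyl hydroxylase of the collagen helix, rose by 0.39, just past the cutoff (limma adjusted p = 7.41e-05). Plod1 was the only one called higher, and its call was lost with array B alone, with all 8 arrays fitted with the sample as a random block, without control 3, without moR-21 1, without moR-21 2 and at a fold change over 1.5. Serpinh1 lost its call without control 3 or moR-21 3, and Bmp1 with median scaling or the mean of all its detected probes, while at a fold change over 1.5 only Plod2 was called. Crtap, a subunit of the prolyl 3-hydroxylase complex, stood at -0.33 at its brighter probe. P4ha2, a prolyl 4-hydroxylase subunit, stood at 0.32. Both values had a limma adjusted p under the threshold and a fold change below the cutoff. The dimmer Crtap probe gave -0.20 (limma adjusted p = 0.0109), which was not under the threshold.

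Partners of the cytosolic members were read in the same way. Of 9 Hsp90 and steroid receptor partners tested 0 were called by limma, with 2 at an unadjusted p under 0.05, as were 3889 of the 8727 genes. The median of the 9 was -0.03. The largest were Hsp90ab1, the constitutive Hsp90, at 0.16 (limma adjusted p = 0.0162) and Ppp5c, a tetratricopeptide phosphatase that shares the Hsp90 site with Fkbp4 and Fkbp5, at -0.18 (limma adjusted p = 0.0161). The probes for Nr3c1, the glucocorticoid receptor, and for Hsp90aa1, Esr1 and Pgr were not detected. Of 8 glucocorticoid receptor target genes tested 1 was called by limma, where 7.79% of all genes were, and 1 had an unadjusted p under 0.05. The called gene was the kinase Sgk1, which fell by 0.54 (limma adjusted p = 5.35e-06), from between 10.16 and 10.35 to between 9.66 and 9.72. The other 7 were not called and the median of the list was -0.05. Fkbp5 is a target of the same receptor and was not counted in that list.

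Of 11 partners of Fkbp1a tested, 5 lay above control and 6 below, with a median of -0.15. By limma 2 were called, where 7.79% of all genes were, and 9 had an unadjusted p under 0.05, as had 3889 of the 8727 genes. The moR-21 samples were all above the controls in 3 of the 11 and all below in 5. Over the 8727 genes 2127 were all above and 1912 all below. The catalytic subunits of calcineurin, the phosphatase that Fkbp1a blocks when FK506 is bound, differed in sign. Ppp3ca rose by 0.47 at its brightest probe (limma adjusted p = 5.92e-06) and stood at 0.27 at a dimmer one, which was not called (limma adjusted p = 0.0153). Ppp3cb fell by 0.38, at the edge of the fold cutoff (limma adjusted p = 2.72e-05), and its call was lost without control 1, moR-21 1 or moR-21 3. Rcan1, which reports calcineurin activity, and the ryanodine receptors Ryr1, Ryr2 and Ryr3 were not detected on any array, so that no effect on those readouts could be measured.

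**Figure D4:**
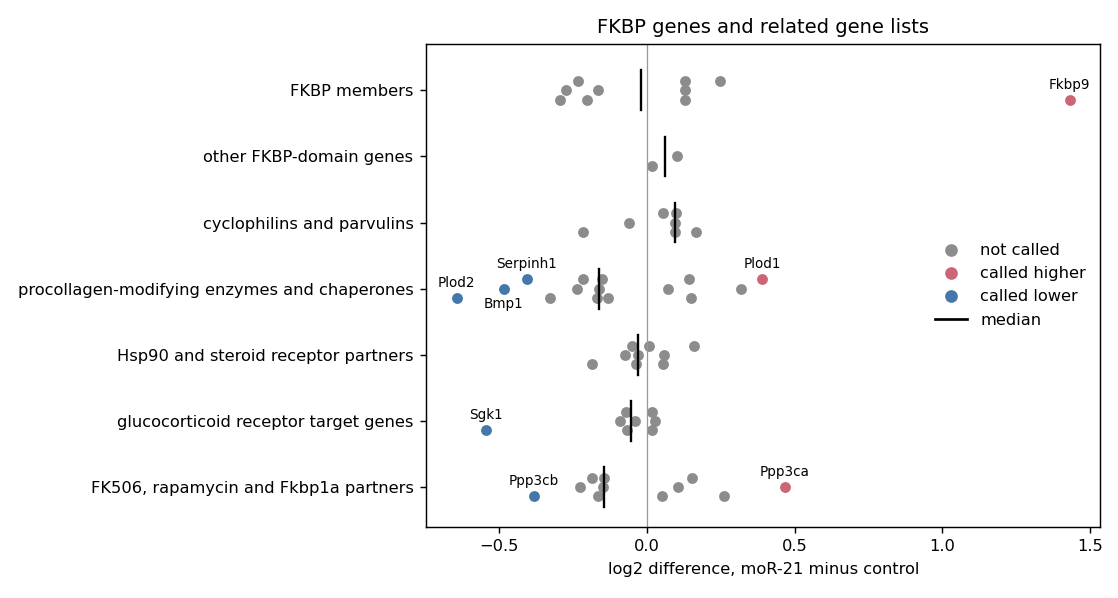
Log2 difference between moR-21 and control for each tested gene of the FKBP groups and the related lists, each point a gene at its brightest detected probe, with called genes named and in colour and the black line at the median of the list. Fkbp9 at 1.43 lies apart from the other FK506-binding proteins, and the called collagen genes lie on both sides of 0, from Plod2 at -0.64 to Plod1 at 0.39.

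The genes nearest to each member in the genome were also read, with the order taken from RefSeq's GRCm38.p6 gene table and protein-coding genes only. Of 40 neighbours, 18 were tested and 1 was called, where 7.79% of all genes tested were, so nothing is read from that count. That gene was P3h4, also known as Sc65 and listed on the array as 1110036O03Rik, which lies next to Fkbp10 on chromosome 11 and encodes a protein of the collagen lysyl hydroxylation complex. It fell by 0.56, from between 9.37 and 9.46 in control to between 8.77 and 8.96 after moR-21 (limma adjusted p = 3.44e-06), and it was singled out after its values were seen. It was not counted among the collagen genes because its array symbol is an older one. Next to Fkbp9 on chromosome 6 lies Nt5c3, a pyrimidine nucleotidase, which stood at 0.38, just under the fold cutoff (limma adjusted p = 4.44e-05), from between 8.52 and 8.65 to between 8.91 and 8.98. On the other side the nearest gene had no probe, and Kbtbd2 beyond it differed by -0.17 (limma adjusted p = 0.103). Vegfb, next to Fkbp2 on chromosome 19, was at 0.36 (limma adjusted p = 0.00196), also under the fold cutoff.

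The promoters of the members were searched because several chaperones of the endoplasmic reticulum are under the control of stress factors with known binding letters. RefSeq windows from 250 bases before to 50 bases after each start site were held for 9 of the 10 genes, in 13 windows, with none for Fkbp10. The core letters ACGTGG of the unfolded protein response element, on either strand, were found in 4 of the 13 windows, for Fkbp9, Fkbp14, Fkbp11 and Fkbp5, and in 8.31% of the 32851 windows of all genes. In Fkbp9 they lay 144 bases before the start site (chr6:56831903-56831932, plus strand) and in Fkbp5 168 bases before it (chr17:28486300-28486329, minus strand). In the others they lay after the start. The windows of the gene with the highest positive difference and of one with a negative difference are shown 5′ to 3′ along the gene, with the core or its reverse complement in capitals.
Fkbp9: ctggatccgctgCCACGTaggagtctccat
Fkbp5: caagggccagacACGTGGgcagcggtgaag
The genes holding these letters therefore lay on both sides of 0, from Fkbp9 at 1.43 to Fkbp5 at -0.27. The longer endoplasmic reticulum stress response element, CCAAT and CCACG with 9 bases between them, was in 0 of the 13 windows and in 0.119% of all, and its second form, ATTGG and CCACG with 1 base between them, in 0 and in 0.0365%. A match is a run of letters and not evidence of binding.

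The pattern of Fkbp9 over the 6 samples was set against that of the other genes at their brightest detected probe. By Pearson's r the closest were the acute-phase protease inhibitor Serpina3n (r = 0.999), 1700034H14Rik (0.999), the histone chaperone subunit Ssrp1 (0.998), the Wnt receptor Ryk (0.998) and Bcap29, a membrane protein of the endoplasmic reticulum (0.997). Their differences ranged from 0.24 (Bcap29) and 0.29 (Ssrp1) to 0.70 (Serpina3n) and 1.08 (Ryk), so a high r came with smaller changes than that of Fkbp9. By root mean square distance after centring each gene on its mean, the closest were Gpc1, a cell surface proteoglycan, at 0.089, Ndrl at 0.13, the glycolytic enzyme Pfkl at 0.17, Ryk at 0.18 and the actin-bundling Fscn1 at 0.20. Their differences were 1.305, 1.28, 1.17, 1.08 and 1.06, the sizes nearest to the 1.43 of Fkbp9. With 6 samples in 2 groups, these values follow mainly the gap between the treatments, and they are given as a description. None of the other FK506-binding proteins was among these genes.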

How the data were processed

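RNA of 3 control and 3 moR-21 samples was hybridized to Illumina mouse arrays, 8 in all. The authors deposited the probe intensity of each array as a non-normalized value, and the deposited detection p-value compares it with negative control beads. The submitters' processing notes name lumi, and the published methods give both MouseWG-6 and MouseRef-8 as designs and use quantile normalization and limma. The members and gene lists were chosen with earlier results of these data known.

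All arrays were quantile normalized together without background correction, log2 transformed, and repeat arrays of a sample were averaged. Differences between treatments were fitted with limma 3.58.1 in R 4.3.3 (lmFit and eBayes, no covariate) over the 11651 probes, for 8727 gene symbols, detected (p under 0.01) on 1 array or more, with Benjamini-Hochberg adjustment over these probes. Calls needed an adjusted p under 0.002 and a change over 1.3-fold, as in the study. The brightest detected probe stood for its gene. The genes named are the FKBP genes, the called genes of each list, or the 3 with the largest difference where more than 6 were called, and the 5 genes closest to Fkbp9 by each measure. Ppif, Hsp90ab1, Ppp5c, Crtap, P4ha2 and the neighbours were named after their values were seen. Of the FKBP-domain genes, 1 is not reported here. The script was tested on simulated data. Alternatives were normexp (offset 16), median scaling, cyclic loess, other detection filters, array A or B alone, all 8 arrays with the sample as a random block, a block for the replicate number, eBayes with trend and robust, leaving out single samples, cutoffs of 0.05 for the adjusted p or 1.5 for the fold change, and the mean of a gene's detected probes. The number of samples limits the precision. Figures were drawn with Python 3.11.15 and matplotlib 3.10.9.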

Additional observations from a re-analysis of the deposited data

How the results depend on the processing

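Over 19 alternatives the difference of Fkbp9 lay between 1.404 (without control sample 2) and 1.498 (normexp), given as a description because the family was chosen on these arrays. No other FK506-binding protein changed sign under any of them. The number of these proteins past both cutoffs was 1, and 2 with normexp, where Fkbp5 joined, and nothing is read from it. The procollagen genes called numbered 4, but 1 at a fold change over 1.5, and between 2 (without control sample 3) and 4 when a sample was left out. The glucocorticoid target called was lost at a fold change over 1.5, which left 0. Partners of Fkbp1a called numbered 2, but 1 with array A alone (Ppp3ca), 1 with the mean of all detected probes (Ppp3cb), and 0 at a fold change over 1.5. Leaving out a sample gave 1 to 2, with Ppp3cb lost without control 1, moR-21 1 or moR-21 3. The difference of Fkbpl, near 0, changed sign, being between -0.0095 and 0.059 without single samples. The cause was not tested. Samples with the same replicate number had deviations from their group means that correlated at 0.187, 0.0441 and 0.0597. Samples with unlike numbers gave values between -0.129 and 0.0693. These values do not settle whether the numbers pair samples, and the main fit did not pair them. With the replicate number as a block (replicate block), the difference of Fkbp9 was 1.43 as before, 1 FK506-binding protein was past the cutoffs, and 682 genes were called in all against 680. Over all genes the count called ran from 217 at a fold change over 1.5 to 943 with normexp. The intensities hold unspecific background, so the fold changes of dim probes such as those of Fkbp5 and Fkbp7 are the least certain in size.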
